A study of Mus musculus with 4 samples.

Results

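CCR4-NOT is the main complex that shortens the poly(A) tails of mRNAs, and 9 genes of its subunits were described here: Cnot1, Cnot2, Cnot3, Cnot4, Cnot6, Cnot6l, Cnot7, Cnot8 and Cnot10. Their members on the array were the probes whose gene name in the scanner files, or the current symbol of whose transcript accession, was 1 of these 9. That rule found 26 of 41174 probes, and 25 of them were among the 26392 probes that cleared background on 2 or more of the 4 arrays and were tested. The remaining one, a Cnot4 probe, was below background on all 4 arrays and was not tested. By target, 22 probes were drawn by the array's design from RefSeq mRNAs, 2 from Ensembl transcripts and 2 from GenBank cDNAs.

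The cells were cultured germline stem cells of mouse testis, which are spermatogonial stem cells grown on embryonic fibroblast feeders. Both groups carried Rosa-CreERT2, a Cre recombinase expressed from the Rosa locus that 4-hydroxytamoxifen activates, and CAG-CAT-3FlagNanos2-pA, a transgene whose CAG promoter expresses Flag-tagged Nanos2 once Cre has acted. The group with Nanos2 forced on (4OHT, 2 arrays) took 4-hydroxytamoxifen for 48 hours, and the control group (DMSO, 2 arrays) took DMSO for 48 hours. No group took 4-hydroxytamoxifen without the transgene, so Nanos2, the compound and Cre cannot be told apart. Nothing in the labels tells whether the replicates were separate cultures. Their p-values therefore take in the spread between these arrays alone, which may be technical.

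The removal of the poly(A) tail is usually the first and rate-limiting step in the decay of an mRNA. In the complex, CNOT1 is the scaffold, CNOT2 and CNOT3 form the NOT module, CNOT10 binds the amino-terminal part of CNOT1, and CNOT4 is a ubiquitin ligase. The catalytic subunits come as pairs of paralogues, CNOT6 or CNOT6L (the CCR4 type) and CNOT7 or CNOT8 (the CAF1 type). NANOS2, which binds RNA and holds spermatogonial stem cells back from differentiation, binds CNOT1 and so brings the complex to its target mRNAs. The comparison therefore addresses whether the transcripts of the machinery that NANOS2 uses differed when Nanos2 was forced on.

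A few probes show what was measured. The sequences are those of the scanner files, 60 bases each, 5′ to 3′, and probes of a gene are numbered from the 5′ to the 3′ end of its transcript. The first pair reads the scaffold gene, at chr8:98268926-98269506 (across a splice junction) and chr8:98249997-98250056, minus strand of mm9.
Cnot1 probe 1: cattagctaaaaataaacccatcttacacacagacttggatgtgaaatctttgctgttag
Cnot1 probe 2: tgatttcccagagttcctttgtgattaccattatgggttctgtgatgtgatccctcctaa

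The next pair reads the CNOT10 subunit and a catalytic gene of the CCR4 type, at chr9:114502587-114506612 and chr11:49488857-49490810, each on the minus strand and across a junction.
Cnot10 probe 3: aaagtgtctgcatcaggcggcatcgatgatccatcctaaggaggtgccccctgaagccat
Cnot6 probe 2: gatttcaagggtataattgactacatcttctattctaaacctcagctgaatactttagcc

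The last pair is shown because CNOT2 and CNOT3 share a related domain, the NOT box, near their carboxyl ends. Placed without gaps at their best match, these 2 probes were identical at 30 of 52 overlapping bases (57.7%), and capitals mark the shared runs of at least 4 letters. They lie at chr10:115923332-115929396 (minus strand) and chr7:3611100-3612380 (plus strand), each across a junction.
Cnot2 probe 1: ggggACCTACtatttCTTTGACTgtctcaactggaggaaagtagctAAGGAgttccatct
Cnot3 probe 3: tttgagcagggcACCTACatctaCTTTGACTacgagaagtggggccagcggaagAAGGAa

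Each of the 6 printed sequences was open, with no stop triplet, in at least 1 reading frame. The share over other probes is not given, so this does not show that the 6 lie in coding sequence. No annotation of mm9 was used here, so which exon or untranslated region each probe lies in is not given.

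All 4 arrays, of an Agilent 1-colour design of 60-base probes, shared 1 slide and 1 scan, and arrays of 1 group correlated at 0.996 (4OHT) and 0.995 (DMSO) across probes. Levels below are scaled signals: the processed signal of a probe multiplied so that the 75th percentile of each array is 723. Differences are 4OHT minus DMSO on the log2 scale ± the standard error from limma (n = 2 arrays per group), and a probe passed at an adjusted p under 0.05. With 2 arrays against 2, an exact two-sided permutation test cannot give a p under 0.333, and every p below depends on the variance that limma shares among probes. In these bulk samples, fewer cells of a type and less RNA per cell cannot be told apart.

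Most subunit transcripts were lower in the 4OHT cells. Of the 25 member probes tested, 17 fell, 2 rose and 6 did not pass in the limma fit. The share called was 76.0%, read against 67.3% of all probes tested, so being called at all was common on these arrays. By direction, 36.2% of all probes were called higher and 31.1% lower. Among the 17 that fell, 2 (Cnot1 probe 1 and Cnot6 probe 1) cleared background in DMSO cells only. Of the 23 probes above background on all arrays, 15 fell, 2 rose and 6 did not pass. The median difference of the member probes was -0.39, against 0.05 over all probes tested. Leaving out 1 array lowered the count of member probes that fell to 11 without 4OHT replicate 1 or without DMSO replicate 1, to 15 without 4OHT replicate 2 and to 16 without DMSO replicate 2. Because so many probes differed, the scaling sets the split: with each array centred on its median, 41.6% of called probes were higher, against 53.8% in the main scaling. The distance of the member median from the median of all probes was -0.44 in the main, median and spike-in scalings. Those differ only by a constant per array, so they could not move it. The distance was -0.46 with quantile normalization and -0.41 with normexp background correction.

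Taken per gene, by the probe with the highest mean signal, 7 of the 9 subunit genes fell, Cnot6 rose and Cnot4 did not pass. The count that fell was 5 with spike-in scaling and with no filter on dim probes, where Cnot7 and Cnot8 no longer passed. Among all 17537 genes, 69.5% were called in either direction, 40.3% higher and 29.3% lower. The median over the 9 genes was -0.38, against 0.11 over all genes. The gene order from the most reduced was Cnot10 (-0.80), Cnot6l (-0.68), Cnot1 (-0.56), Cnot3 (-0.48), Cnot2 (-0.38), Cnot8 (-0.30) and Cnot7 (-0.26), then Cnot4 (0.02) and Cnot6 (0.39). Standard errors of these values were between 0.06 and 0.11, and the 95% intervals of every pair of neighbours in this order overlapped. The mean that chose a probe was taken over all 4 arrays, so the 4OHT arrays helped to choose it. Cnot1 was read by probe 3 (-0.56). In DMSO cells its probe 2 (-1.34) was the brighter, at 1833 and 1809 against 1730 and 1766. The groups did not overlap for 21 of the 25 member probes, against 85.7% of all probes tested.

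**Figure D1:**
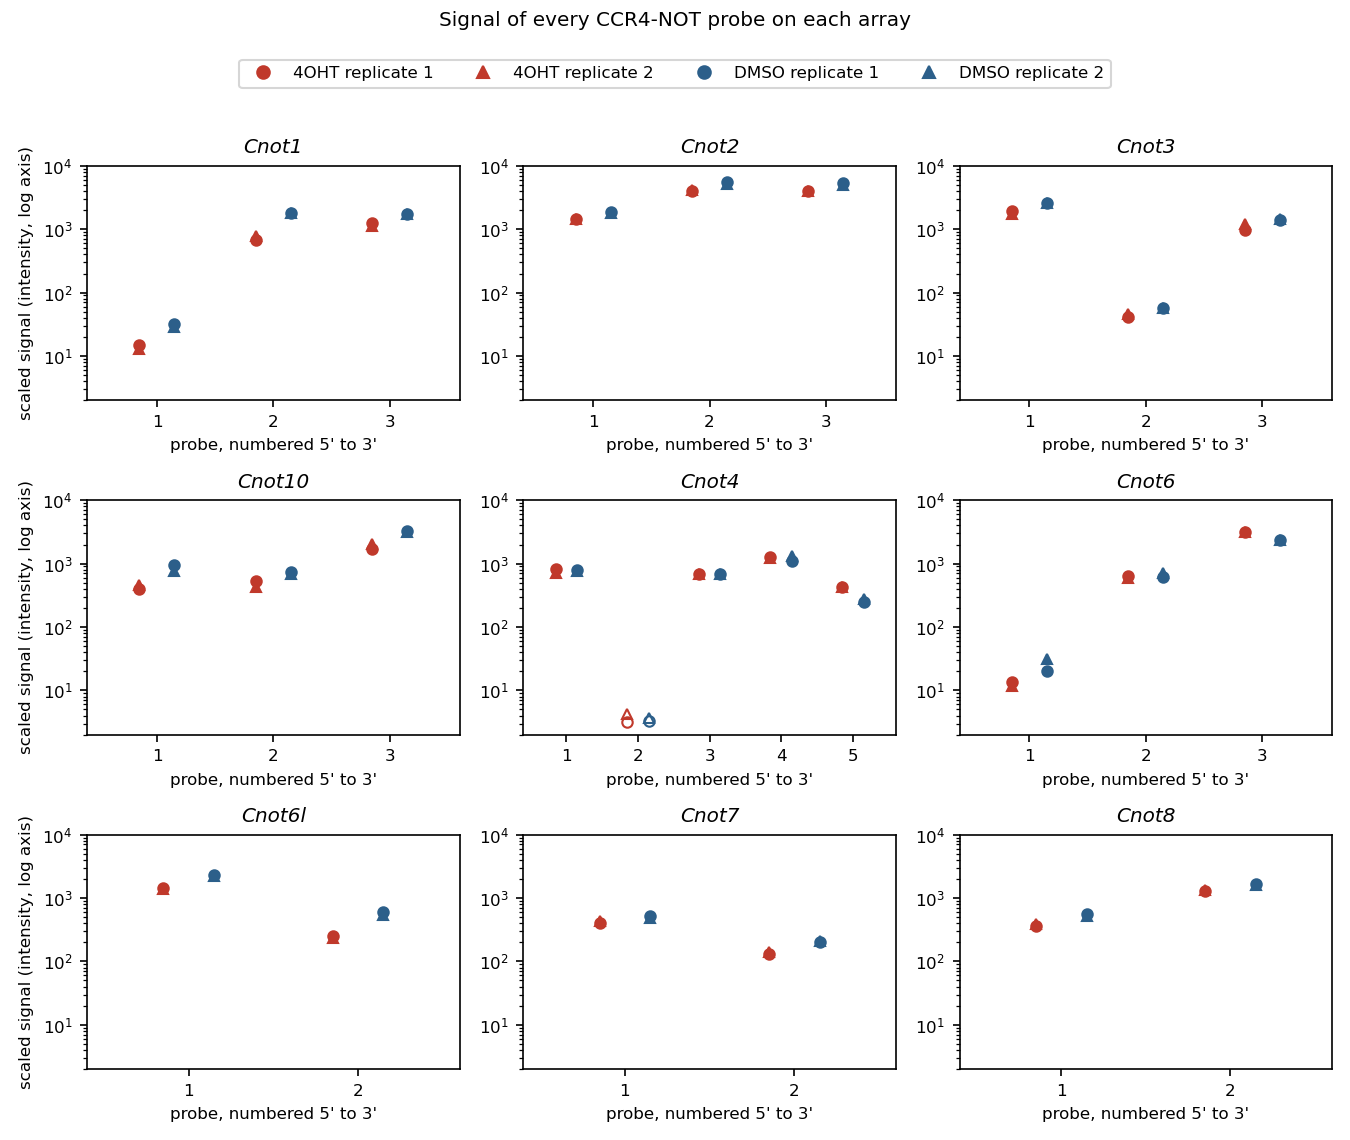
Scaled signal (log axis) of each probe of the 9 subunit genes on each array, with the 4OHT arrays left of the DMSO arrays and open symbols for the probe not tested. The 4OHT points of both Cnot6l probes and of all Cnot1 and Cnot10 probes lie below their DMSO points, while Cnot4 probe 5 and Cnot6 probe 3 lie above theirs.

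Cnot1, which encodes the scaffold that NANOS2 binds, fell at both of its probes that were well above background on all arrays, but not by the same amount. Probe 3, toward the 3′ end at chr8:98243614-98243673, read 1243 and 1137 in 4OHT cells and 1730 and 1766 in DMSO cells. Probe 2 read 671 and 767 in 4OHT cells and 1833 and 1809 in DMSO cells. At both probes the 4OHT arrays were the lower ones and the groups did not overlap. The difference was -0.56 ± 0.08 at probe 3, or 1.47-fold lower (limma adjusted p = 0.00486), and -1.34 ± 0.09 at probe 2, or 2.54-fold lower (limma adjusted p = 0.00103).

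Probe 1 of Cnot1 was dim. It read 15.1 and 13.1 in 4OHT cells, not well above background on either array, and 32.2 and 28.5 in DMSO cells. The 4OHT arrays were again the lower ones, with no overlap. For such a probe only a bound is given, which holds for the main setting alone. It sets the DMSO mean against the higher of each 4OHT array's own reading and its lowest signal well above background. By that bound, Cnot1 probe 1 fell at least 1.73-fold. Its limma adjusted p of 0.00214 belongs to the fitted difference, not to the bound. The probe entered the fit through its DMSO arrays alone, so its call does not add to that of the other probes. Its fitted difference depends on how background is handled, -1.11 in the main setting and -0.29 with normexp correction. The latter is a smaller fall than the bound.

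The probes of Cnot1 differed from each other by more than the spread between arrays. The log2 ratio of probe 2 over probe 3, taken within each array and so free of scaling between arrays, was -0.89 and -0.57 in 4OHT cells and 0.08 and 0.03 in DMSO cells. That ratio fell by 0.79 ± 0.14 (limma adjusted p = 0.0170 over 8857 such ratios). A single number therefore does not describe the fall of Cnot1. The 2 probes lie 6383 bases apart in the genome, and the scanner files list the same 3 RefSeq transcripts for both. Why they differed was not tested.

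Cnot2 and Cnot3 encode the NOT module, which sits on the carboxyl-terminal part of CNOT1. Cnot2 had the most even set of probes. Its probe 2, at chr10:115922428-115922487, read 4063 and 4202 in 4OHT cells and 5505 and 5255 in DMSO cells. The 4OHT arrays were lower without overlap, and the difference was -0.38 ± 0.07 (limma adjusted p = 0.0105). Probe 1, printed above, read 1439 and 1454 in 4OHT cells and 1854 and 1794 in DMSO cells, lower without overlap by -0.33 ± 0.07 (limma adjusted p = 0.0131). Probe 3 differed by -0.38 ± 0.07 (limma adjusted p = 0.00996), and neither ratio between Cnot2 probes passed. Each Cnot2 call was lost when 4OHT replicate 1 or DMSO replicate 1 was left out, with limma adjusted p between 0.0502 and 0.0654, and that of probe 1 also without 4OHT replicate 2 (0.0556).

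Cnot3 was also lower. Its probe 1, at chr7:3597010-3597069, read 1968 and 1740 in 4OHT cells and 2550 and 2604 in DMSO cells, and probe 2 read 41.9 and 45.4 in 4OHT cells and 57.3 and 56.3 in DMSO cells. Both sets were lower in 4OHT without overlap, by -0.48 ± 0.09 (limma adjusted p = 0.0109) and -0.38 ± 0.08 (limma adjusted p = 0.0132). The call of probe 2 was lost without 4OHT replicate 1 (limma adjusted p = 0.0599) or DMSO replicate 1 (0.0548), and differed by -0.11 with normexp correction. Probe 3, printed above, read 971 and 1223 in 4OHT cells and 1397 and 1466 in DMSO cells. Those groups did not overlap either, but the 4OHT arrays lay far apart, and the difference of -0.39 ± 0.13 did not pass (limma adjusted p = 0.0592, 95% interval -0.76 to -0.03). Normexp correction, quantile normalization, median scaling and spike-in scaling each brought Cnot3 probe 3 past the threshold (limma adjusted p between 0.00904 and 0.0472). So did a filter on all 4 arrays (limma adjusted p = 0.0387) and the replicate block (0.0486). It did not pass with no filter on dim probes (limma adjusted p = 0.140) or in the deposited table (0.0603). The difference was -0.56 without 4OHT replicate 2 and -0.23 without 4OHT replicate 1.

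Cnot10, whose protein joins CNOT11 on the amino-terminal part of CNOT1, was lower at its 3 probes. Its per-gene value, -0.80, was the lowest of the 9 by the probe of highest mean, but with probes averaged per gene it was -0.79, against -1.002 for Cnot1 and -0.96 for Cnot6l. Without 4OHT replicate 1 it was -0.68, against -0.70 for Cnot6l. Probe 3 read 1694 and 2007 in 4OHT cells and 3271 and 3169 in DMSO cells. Probe 1, at chr9:114527047-114527106, read 403 and 458 in 4OHT cells and 934 and 776 in DMSO cells. In both, the 4OHT arrays were the lower ones and did not overlap with DMSO. The difference was -0.80 ± 0.11 at probe 3, or 1.75-fold lower (limma adjusted p = 0.00408), and -0.99 ± 0.13 at probe 1 (limma adjusted p = 0.00388).

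The second probe of Cnot10 is a GenBank cDNA probe that lies within the genomic span bridged by probe 3. It read 540 and 421 in 4OHT cells and 733 and 690 in DMSO cells, again without overlap. The difference was -0.58 ± 0.14 (limma adjusted p = 0.0248), which was lost without DMSO replicate 1 (-0.53, limma adjusted p = 0.0723). Neither ratio between Cnot10 probes passed.

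The probes of Cnot4, the ubiquitin ligase subunit, did not move together, and nor did those of Cnot6 described below. Probe 4, at chr6:34995213-34995272, read 1258 and 1203 in 4OHT cells and 1118 and 1317 in DMSO cells. Probe 3 read 691 and 678 in 4OHT cells and 688 and 688 in DMSO cells, and probe 1 read 809 and 720 in 4OHT cells and 801 and 765 in DMSO cells. All 3 sets overlapped between the groups and none passed. Their differences were 0.02 ± 0.11 for probe 4 (95% interval -0.27 to 0.31), -0.01 ± 0.07 for probe 3 (-0.19 to 0.17) and -0.04 ± 0.09 for probe 1 (-0.28 to 0.21).

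Cnot4 probe 5, nearest the 3′ end at chr6:34972525-34972584, read 423 and 430 in 4OHT cells and 246 and 276 in DMSO cells. Here the 4OHT arrays were the higher ones and the groups did not overlap. Cnot4 probe 5 rose by 0.71 ± 0.09, or 1.64-fold (limma adjusted p = 0.00315). Within arrays, the log2 ratio of probe 5 over probe 4 was -1.57 and -1.49 in 4OHT cells and -2.18 and -2.26 in DMSO cells, a rise of 0.69 ± 0.09 (limma adjusted p = 0.00890). The rise of probe 5 passed in all 12 settings compared, between 0.53 and 0.79, and that of the ratio in all 12, between 0.58 and 0.73. Settings that apply a constant per array, such as median and spike-in scaling, could not move the ratio. In the accessions that the scanner files list, of which there are at most 4 a probe, probe 5 named 3 RefSeq variants and shared 0 of them with probes 3 and 4, which name the same 2. Probe 1 named 4 variants, the 3 of probe 5 and 1 of those of probes 3 and 4. The dim probe 2, from a GenBank cDNA, read 3.20 and 4.25 in 4OHT cells and 3.28 and 3.68 in DMSO cells, not well above background on any array.

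For the catalytic subunits of the CCR4 type, Cnot6l fell and Cnot6 depended on the probe. Cnot6l was lower at both of its probes, which lie 762 bases apart. Probe 1, at chr5:96505895-96505954, read 1449 and 1406 in 4OHT cells and 2335 and 2246 in DMSO cells, and probe 2, at chr5:96505133-96505192, read 249 and 237 in 4OHT cells and 596 and 546 in DMSO cells. All 4OHT arrays were lower without overlap. The difference was -0.68 ± 0.07 at probe 1, or 1.60-fold lower (limma adjusted p = 0.00204), and -1.23 ± 0.08 at probe 2, or 2.35-fold lower (limma adjusted p = 0.000971). The ratio of probe 2 over probe 1 fell by 0.55 ± 0.09 (limma adjusted p = 0.0133). That call was lost without 4OHT replicate 1, 4OHT replicate 2 or DMSO replicate 1, with limma adjusted p between 0.0559 and 0.0584.

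Cnot6 had probes in 3 states. Probe 3, the one nearest the 3′ end at chr11:49485150-49485209 and drawn from an Ensembl transcript, read 3103 and 3095 in 4OHT cells and 2362 and 2362 in DMSO cells. It was higher in 4OHT without overlap, by 0.39 ± 0.06, or 1.31-fold (limma adjusted p = 0.00742). The call was lost with spike-in scaling, where the difference was 0.24 and limma adjusted p = 0.368. Probe 2, the RefSeq probe printed above, read 634 and 585 in 4OHT cells and 614 and 699 in DMSO cells. These groups overlapped, and the difference of -0.11 ± 0.10 did not pass (limma adjusted p = 0.399, 95% interval -0.38 to 0.17).

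The first Cnot6 probe, from an Ensembl transcript too, was dim. It read 13.4 and 11.6 in 4OHT cells, not well above background on either array, and 20.0 and 30.8 in DMSO cells. The 4OHT arrays were lower without overlap, and by the bound of the main setting Cnot6 probe 1 fell at least 1.42-fold. The limma adjusted p of 0.0214 belongs to its fitted difference, not to the bound. This probe too entered the fit through its DMSO arrays alone, so its call adds no support. With normexp correction it differed by -0.22, a smaller fall than the bound. That call was lost without 4OHT replicate 1 (limma adjusted p = 0.0658) or 4OHT replicate 2 (0.0999). With the mean of its probes standing for the gene, Cnot6 differed by -0.24 and did not pass, so the sign of Cnot6 rests on probe 3. The ratio of probe 2 over probe 3 fell by 0.50 ± 0.11 (limma adjusted p = 0.0307). The ratio's call was lost without 4OHT replicate 1 (limma adjusted p = 0.0843), 4OHT replicate 2 (0.111) or DMSO replicate 2 (0.0988).

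The balance between the CCR4-type paralogues was tested within arrays, by the probe that stood for each gene. For Cnot6 that was probe 3, for which the scanner files list 0 RefSeq transcripts. The RefSeq probe 2 of Cnot6 differed by -0.11, and its ratio to Cnot6l was not tested. The result below is thus that of probe 3. The log2 ratio of Cnot6 over Cnot6l was 1.10 and 1.14 in 4OHT cells and 0.02 and 0.07 in DMSO cells. The 4OHT arrays were higher without overlap, by 1.07 ± 0.09 (limma adjusted p = 0.00377, 95% interval 0.85 to 1.30). This rise passed in all 12 settings compared, between 1.04 and 1.10, each with these same 2 probes. Median scaling, spike-in scaling and the deposited table could not move a within-array ratio. The filters and the replicate block could not move its size.

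Cnot7 and Cnot8 encode the CAF1-type nucleases, which bind the central part of CNOT1. Cnot8 probe 1 read 360 and 384 in 4OHT cells and 562 and 521 in DMSO cells. Cnot8 probe 2, at chr11:57931145-57931204, read 1292 and 1330 in 4OHT cells and 1637 and 1583 in DMSO cells. Both were lower in 4OHT without overlap, by -0.54 ± 0.08 at probe 1 (limma adjusted p = 0.00575) and -0.30 ± 0.07 at probe 2 (limma adjusted p = 0.0198). Without any 1 of the 4 arrays, probe 2 no longer passed, with limma adjusted p between 0.0601 and 0.0922.

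The other gene of the pair was lower as well. Cnot7 probe 2, at chr8:41578761-41578820, read 133 and 139 in 4OHT cells and 202 and 206 in DMSO cells, lower without overlap by -0.59 ± 0.07 (limma adjusted p = 0.00288). Cnot7 probe 1, at chr8:41595494-41595553, read 407 and 440 in 4OHT cells and 526 and 488 in DMSO cells. These did not overlap, but the difference of -0.26 ± 0.08 lay at the threshold: it missed in the fit over all probes (limma adjusted p = 0.0517) and passed in the fit over genes (limma adjusted p = 0.0452). The per-gene call of Cnot7 was lost without any 1 of the 4 arrays, with limma adjusted p between 0.0616 and 0.172.

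The balance of the CAF1-type pair did not pass. The log2 ratio of Cnot7 over Cnot8 was -1.67 and -1.60 in 4OHT cells and -1.64 and -1.70 in DMSO cells. The groups overlapped, and the difference was 0.04 ± 0.09 (limma adjusted p = 0.776), with a 95% interval of -0.20 to 0.27 that does not reach the size seen for the CCR4-type pair.

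**Figure D2:**
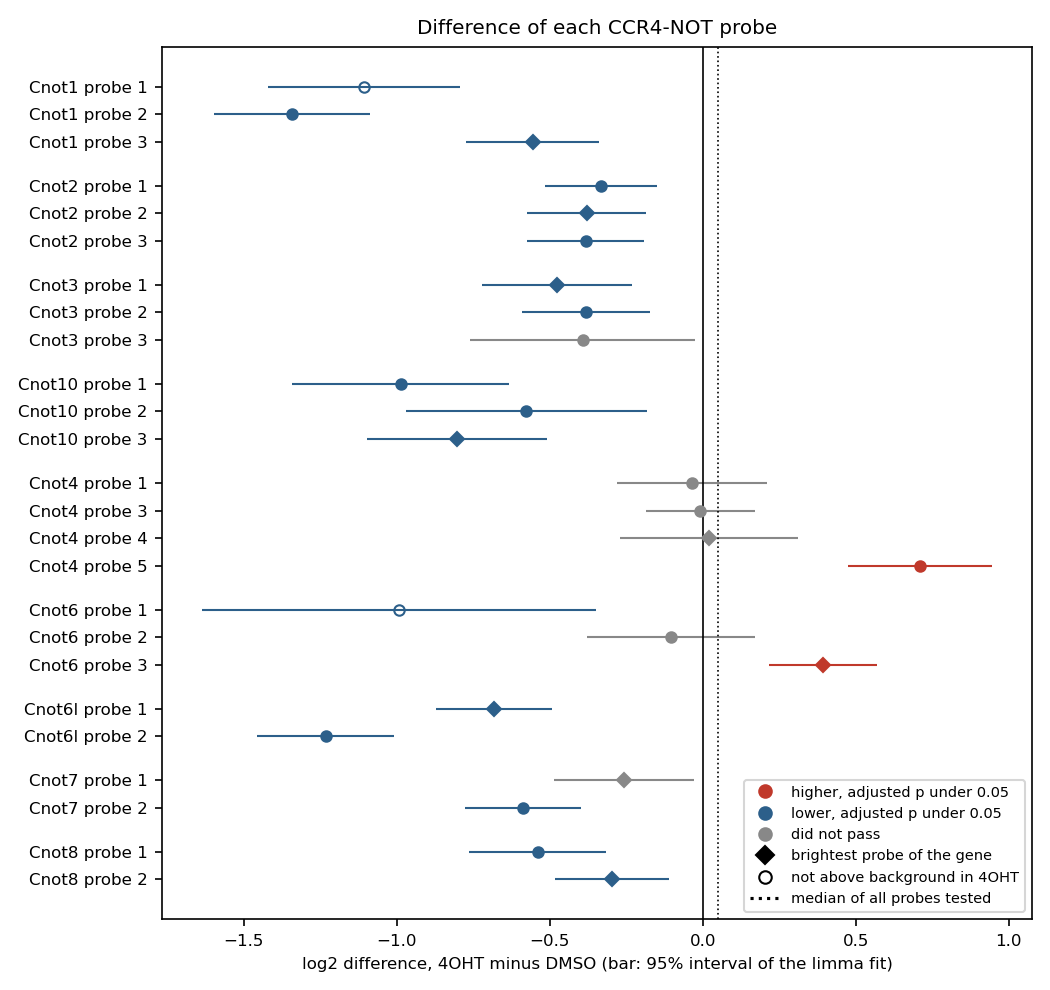
Difference of each tested probe (4OHT minus DMSO, log2) with its 95% interval from the limma fit, by gene, and the median of all probes tested (0.05) as a dotted line, diamonds for probes of highest mean signal and open symbols for those not well above background in 4OHT cells. Of 25 probes, 23 lie below that line, and Cnot4 probe 5 and Cnot6 probe 3 lie above it.

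Relative to the median of all probes, 23 of the 25 member probes were lower in the main scaling and 21 with quantile normalization. Ratios between probes of 1 gene are free of a constant factor per array, such as the percentile, median and spike-in scalings apply, but not of quantile normalization, which moved 8 subunit ratios past the threshold, paralogues included, against 7 in the main setting. Of 16 within-gene ratios over the subunits, 6 passed (37.5%), against 36.0% of all 8857 ratios (12.2% higher and 23.8% lower), so differences between probes of a subunit gene were about as frequent as in other genes. Of those 6, 5 were lower and 1, that of Cnot4 probes 5 and 4, was higher. Counted in them are Cnot1 probe 1 over probe 3 and Cnot6 probe 1 over probe 3, whose numerators were not well above background in 4OHT cells and entered through the DMSO arrays alone. The Cnot1 ratio was -0.55 in the main setting and 0.25 with normexp correction, and the Cnot6 ratio -1.39 and -0.60, so neither is given as a size. Leaving them out, 4 of 14 ratios passed, 3 lower and 1 higher.

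**Figure D3:**
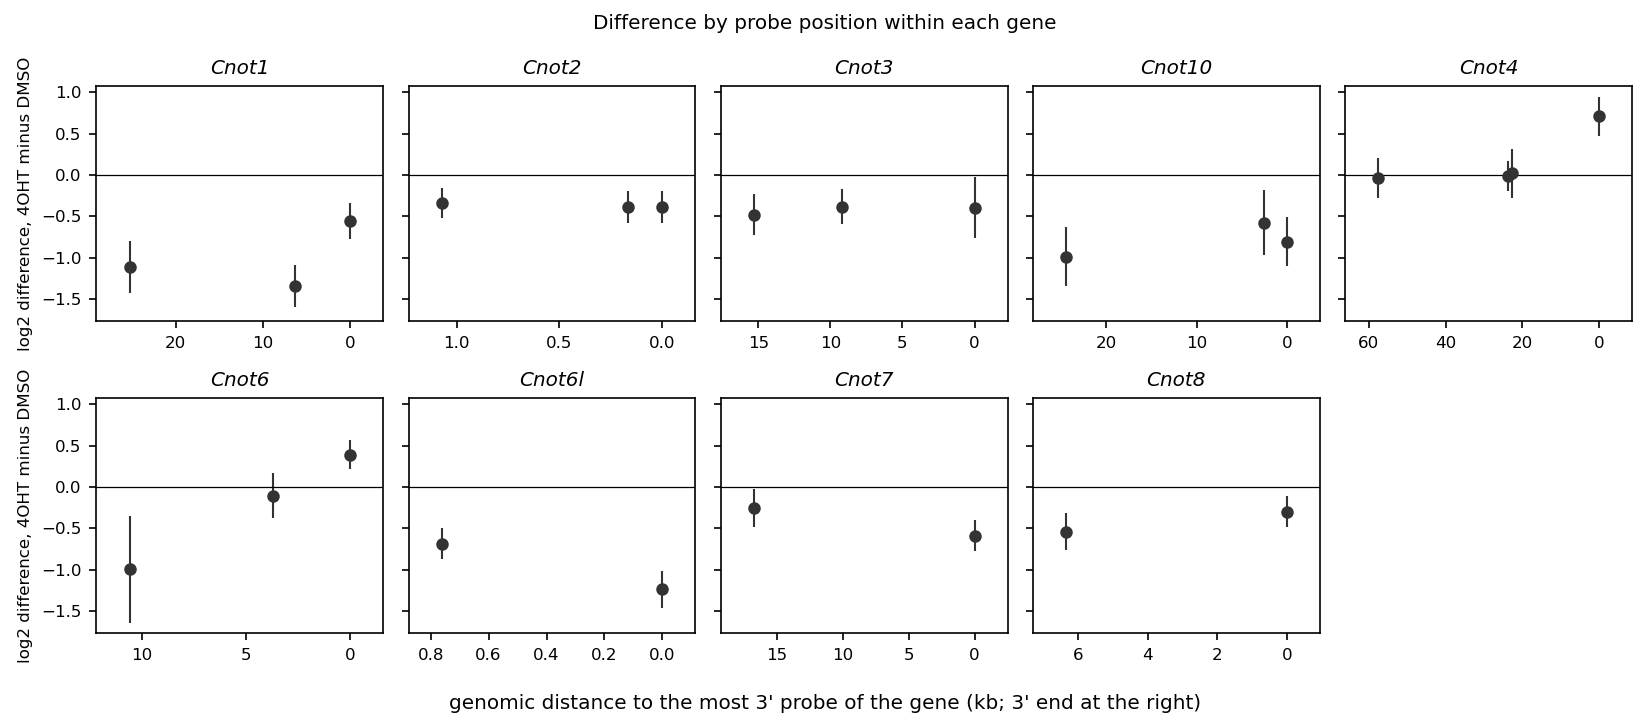
Difference of each tested probe (4OHT minus DMSO, log2) against its genomic distance from the most 3′ probe of the same gene, in kb, with the 95% interval of the limma fit and 1 panel a gene. Probes of Cnot1, Cnot4 and Cnot6 are spread over different values along their genes, while those of Cnot2 lie together.

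The other subunits of the complex were on the array too, as a list of 3 genes. All fell by the probe of highest mean, against 29.3% of all genes. Cnot9, whose protein binds CNOT1 beside the CAF1-type nucleases, read 109 and 144 in 4OHT cells and 382 and 363 in DMSO cells, lower without overlap by -1.57 ± 0.15 (limma adjusted p = 0.00178). That value rests on its 1 probe. Cnot11, the partner of CNOT10, read 1523 and 1740 in 4OHT cells and 2779 and 2594 in DMSO cells, lower without overlap by -0.72 ± 0.10 (limma adjusted p = 0.00389), close to Cnot10 itself. Tnks1bp1, a protein found with the complex, differed by -0.33 ± 0.07 (limma adjusted p = 0.0143). Its call was lost with spike-in scaling (limma adjusted p = 0.0514) and with no filter on dim probes (0.0584). It was also lost without 4OHT replicate 2 (difference -0.29) or DMSO replicate 1 (-0.31). A further Tnks1bp1 probe differed by -0.24 and did not pass (limma adjusted p = 0.115).

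Among the proteins that bring CCR4-NOT to mRNAs, 8 of 25 measured genes rose, 8 fell and 9 did not pass, with a median of -0.00. The shares over all genes were 40.3% higher and 29.3% lower. Nanos2 itself read 927 and 1096 in 4OHT cells and 346 and 342 in DMSO cells, higher by 1.55 ± 0.10 (limma adjusted p = 0.000868). Whether its probe reads the transgene, the endogenous gene or both was not determined. The related genes Nanos3 and Nanos1, RNA-binding proteins of the same family, went the other way. Nanos3 read 26.8 and 33.5 in 4OHT cells and 835 and 795 in DMSO cells (-4.77 ± 0.13, limma adjusted p = 0.000369), and Nanos1 read 72.0 and 58.9 in 4OHT cells and 463 and 441 in DMSO cells (-2.80 ± 0.12, limma adjusted p = 0.000476). The groups did not overlap for any of the 3. With normexp correction the differences were -3.17 for Nanos3 and -2.05 for Nanos1.

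Genes of the decay steps around deadenylation were mostly lower. Of 8 other deadenylases, 7 fell and 1 did not pass (median -0.63), with Pan2, the catalytic subunit of the PAN2-PAN3 deadenylase, at -1.27 ± 0.08 (limma adjusted p = 0.000871), Pde12, a mitochondrial poly(A) nuclease, at -0.95 and Angel1 at -0.90. Pan3, the partner of Pan2, did not pass (0.01). Of 20 decapping and P-body genes, 13 fell, 1 rose and 6 did not pass (median -0.48), led by Lsm2 (-1.33) and Lsm3 (-1.07), which belong to the LSM ring on the mRNA's 3′ end, and Edc3, a decapping enhancer (-1.07). Of 14 exosome and SKI genes, which degrade RNA from the 3′ end, 9 fell, 2 rose and 3 did not pass (median -0.56), led by the core subunits Exosc7 (-1.51) and Exosc8 (-1.002) and the nuclease Dis3 (-0.97). Exosc8 read 6802 and 7348 in 4OHT cells and 15039 and 13339 in DMSO cells, lower without overlap.

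Genes that lengthen or bind the tail were described as well. Of 11 measured poly(A)-binding proteins and poly(A) polymerases, 6 fell, 1 rose and 4 did not pass (median -0.46). Papola, the canonical nuclear poly(A) polymerase, read 3698 and 3704 in 4OHT cells and 8954 and 8599 in DMSO cells, lower without overlap by -1.25 ± 0.06 (limma adjusted p = 0.000589). Papolg, another poly(A) polymerase, differed by -0.71 and Tent4b, a non-canonical one, by -0.67. Over all related lists, 46 of 81 measured genes fell, 12 rose and 23 did not pass (median -0.31), against 29.3% lower and 40.3% higher over all genes. With spike-in scaling the count of higher genes was 5 and that of lower genes 38.

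**Figure D4:**
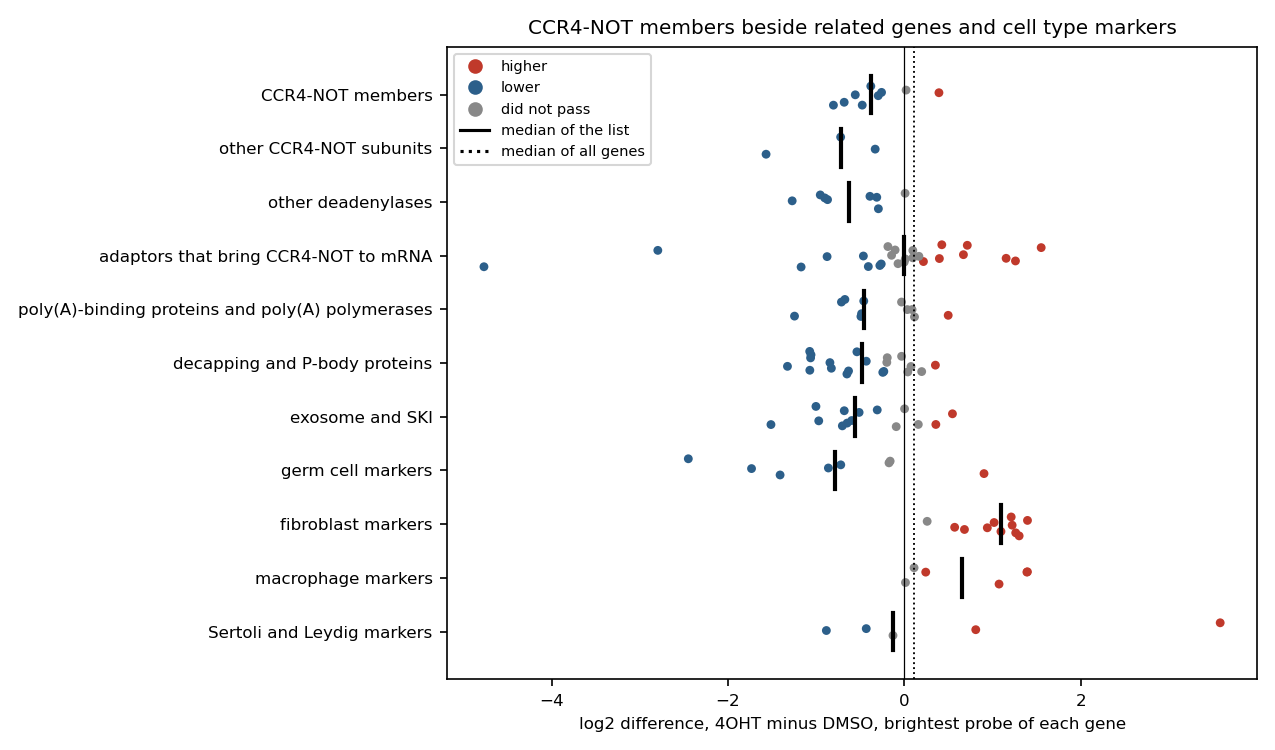
Difference per gene (4OHT minus DMSO, log2) in the 9 subunits, in each related list and in the marker lists, 1 point a gene, coloured by call, with the list median as a bar and the median of all genes (0.11) as a dotted line. The medians of the subunits (-0.38) and of other deadenylases (-0.63) lie below 0, that of adaptors is at -0.00 and that of fibroblast markers is 1.10.

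Markers of other cell types moved with the comparison. The germ cell helicase Ddx4 was measured in all arrays, with 19188 and 20525 in 4OHT cells and 23335 and 21486 in DMSO cells (-0.17, not passed). Of all genes, 40.3% were higher and 29.3% lower, which is the background for the marker counts. Of 8 germ cell markers measured, 5 fell, 1 rose and 2 did not pass, and their summed signal was 31819 and 33232 in 4OHT cells and 51862 and 50560 in DMSO cells. The largest part of that fall was in Dazl, with 7973 and 8268 in 4OHT cells and 21333.5 and 21784.5 in DMSO cells. The 2 that did not pass were Ddx4 and Sall4. Of 11 fibroblast markers, 10 rose and 1 did not pass, with summed signals of 213595 and 201977 in 4OHT cells and 111152 and 127510 in DMSO cells, although the labels state that feeders were removed. Of 6 macrophage markers, 4 rose and 2 did not pass, with sums of 25458 and 26130 in 4OHT cells and 11650 and 12956 in DMSO cells. Most of that sum was Lyz2, with 23679 and 24358 in 4OHT cells and 10711 and 12158 in DMSO cells. Of 5 measured Sertoli and Leydig markers, 2 rose, 2 fell and 1 did not pass, with sums of 1108 and 1152 in 4OHT cells and 588 and 648 in DMSO cells, and Amh was below the filter. Cldn11 and Sox9 were those that rose, while Wt1 and Cyp17a1 fell. The lowest signal of a tested marker was 20.6, of the macrophage marker Ptprc. The part of other cells in the differences of the subunits was not tested.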

How the data were processed

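Total RNA of 4 samples was labelled with Cy3 and hybridised to Agilent design 014868. The deposited scanner files hold processed intensity values per spot, made with Agilent Feature Extraction 10.7.3.1 per the file headers and 9.5 per the submitters' processing notes, a conflict the sources used here do not settle. The deposited value table holds log2 values that exceed log2 of the processed signal by a fixed amount on each array (0.362 and 0.356 for 4OHT, 0.290 and 0.275 for DMSO), with column medians of 6.35, 6.35, 6.16 and 6.18, and served as an alternative. Scale, centring and direction were thus known.

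Signals were log2-transformed minus each array's 75th percentile (signals of 705 and 706 for 4OHT, 737 and 744 for DMSO). Control and outlier spots (60 to 71 per array) were left out and spots of a probe averaged. Of all spots, 65.9% and 62.1% (4OHT) and 62.7% and 62.4% (DMSO) were well above background, and 0 were saturated. The number of arrays limits the precision. Probes were named through a RefSeq table of GRCm38.p6 (33636 of 41174 matched, 7538 kept the file's name), and coordinates are the files', on mm9.

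The comparison used limma 3.58.1 under R 4.3.3 (lmFit and eBayes with no covariate, Benjamini-Hochberg over all probes, genes or ratios). The fit was also run on simulated arrays. Few probes changed in those and no scaling between arrays was simulated, so that run does not cover the conditions here. A gene was read by its probe of highest mean over the 4 arrays. The names in the text are all members, Nanos2, and up to 3 passing genes with the largest difference in each related list. Pan3, the subunit partner of Pan2, and all marker genes named singly were chosen after their values were seen. Members and lists were chosen with earlier results of these data known. Alternatives were normexp background correction (offset 50), median, quantile and spike-in scaling (7 probes), the deposited table, other filters, the mean of a gene's probes, a replicate block and leaving out each array.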

Additional observations from a re-analysis of the deposited data

How the results depend on the processing

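With 2 arrays per group, calls near the threshold moved with single arrays. Leaving out 1 array gave 11 to 16 subunit probes lower (17 in the main setting), 3 to 6 subunit ratios called (7) and 1514 to 2581 ratios called overall (3190). With no filter on dim probes, 2 subunit ratios and 1966 of all ratios were called. In that setting and with spike-in scaling, 5 subunit genes were lower (main 7). With spike-in scaling, 1 subunit probe (main 2), 0 subunit genes (main 1) and 5 related genes (main 12) were higher, and when probes were averaged per gene 0 subunit genes were higher, Cnot6 turning to -0.24.

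Some values changed sign, mostly those near 0. Cnot4, and its probe 4, was -0.16 with median scaling, -0.13 with spike-in scaling, and between -0.0985 and 0.14 with 1 array left out, where Cnot4 probe 1 was between -0.12 and 0.0477 and probe 3 between -0.0215 and 0.0051. Among ratios over the gene's highest probe, Cnot1 probe 1, -0.55 and called in the main setting, was 0.25 with normexp, and Cnot3 probe 2 was -0.0919 with quantile normalization. With 1 array left out, the lowest and highest ratios were -0.15 and 0.0904 for Cnot4 probe 3, -0.21 and 0.0960 for Cnot4 probe 1, -0.17 and 0.34 for Cnot3 probe 3, -0.0503 and 0.24 for Cnot3 probe 2, -0.0241 and 0.0193 for Cnot2 probe 3, and -0.0757 and 0.53 for Cnot10 probe 2. The cause was not tested, except that leaving out an array removes a sample.

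Equal replicate numbers share only a number: deviations of same-numbered arrays correlated at -0.0448. With the replicate block, 17 subunit probes were lower and 2 higher, as without it, 5 subunit genes were lower, and 16117 of all probes were called. Cnot7 (limma adjusted p = 0.105) and Cnot8 (limma adjusted p = 0.0560) lost their per-gene call.

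Over all these alternatives, values of subunit probes kept direction and side of the threshold in 255 cases, lost the call in 26, gained it in 11 and changed sign in 6. For subunit genes these were 98 kept, 14 lost and 5 of changed sign, and for subunit ratios 185 kept, 17 lost, 3 gained and 9 of changed sign. Named genes of the related lists kept theirs in 230 cases and lost the call in 4, with 0 changes of sign. Signals near background limit Cnot1 probe 1, Cnot6 probe 1 and the 4OHT values of Nanos3 and Nanos1.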
